A study of Mus musculus with 18 samples.

Results

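The genes described are Trp53, Mdm2 and Mdm4, found by their gene identifiers in a table of mRNA sequencing counts, both summed per gene and for each RefSeq transcript. They are 3 of the 19630 genes and 15 of the 75416 transcripts in the table: 5 of Trp53, 4 of Mdm2 and 6 of Mdm4. The study sequenced 18 mouse libraries, 3 in each of 6 groups. Mouse embryonic stem (ES) cells were sequenced together with embryonic fibroblasts labelled p53-defective, on which they had been cultured, or together with control embryonic fibroblasts. Such fibroblasts are called feeders because they form the layer that supports ES cells in culture. Libraries whose source is given as ES cells alone came in 2 groups, ES cells whose feeders were replaced by ATN161, which blocks integrin α5β1, and those cultured on control feeders that were then removed. The labels do not say how or when feeders were removed, and fibroblast markers remained in these libraries, as given below. The last groups were feeders alone, p53-defective and control. No strain, ES cell line, age or culture time is given in the labels, and no alteration is named that made the feeders p53-defective. The labels do not say whether the 3 replicates of a group were separate cultures, so p-values cover the spread of these libraries, which may be technical.

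The protein p53, encoded by Trp53, is a transcription factor that is activated by DNA damage and other stress and switches on genes of cell cycle arrest, DNA repair and cell death. Mdm2 encodes a ubiquitin ligase that binds p53 and sends it for degradation, and Mdm4 encodes a related protein that binds p53 and blocks it. Mdm2 is itself a direct target of p53, which closes a negative feedback loop, and p53 is controlled mainly at the level of its protein, which was not measured here. On GRCm38.p6, Trp53 (Entrez 22059) lies on chromosome 11 from 69580348 to 69591873, Mdm2 (Entrez 17246) on chromosome 10 from 117688875 to 117710758, and Mdm4 (Entrez 17248) on chromosome 1 from 132986105 to 133030587.

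The 2 curated Trp53 transcripts differ at the last exon junction, and they are shown because their shares are compared below. They were matched to GENCODE transcripts, whose sequence is given 5′ to 3′ on GRCm38 (+ strand). In lower case are the last 30 bases of exon 10 (chr11:69590733-69590762), and in capitals the coding part of exon 11 through its stop codon. That part is chr11:69591350-69591431 in NM_011640 and chr11:69591254-69591308 in NM_001127233, whose exon 11 begins 96 bases earlier, so that the proteins end in different residues.
NM_011640: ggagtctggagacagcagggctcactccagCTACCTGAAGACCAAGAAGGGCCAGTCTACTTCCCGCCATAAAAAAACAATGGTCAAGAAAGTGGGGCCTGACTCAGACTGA
NM_001127233: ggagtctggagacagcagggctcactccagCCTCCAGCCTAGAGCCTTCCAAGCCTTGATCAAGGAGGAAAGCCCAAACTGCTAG
The capitals hold 82 bases ending in TGA in NM_011640 and 55 bases ending in TAG in NM_001127233.

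Among the curated Mdm4 transcripts, 2 carry an extra CAG where exon 2 joins exon 3 (− strand, exon 2 ending at chr1:133018777-133018800), and 2 lack it. They are shown because Mdm4 counts shifted between transcripts from library to library. The extra bases are in capitals.
NM_001302801 and NM_001302802: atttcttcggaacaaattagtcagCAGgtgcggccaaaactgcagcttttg
NM_001302803 and NM_001302804: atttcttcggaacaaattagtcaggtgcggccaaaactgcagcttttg
Exon 3 begins with chr1:133012688-133012714 in the pair with CAG and with chr1:133012688-133012711 in the pair without it.

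The 250 bases before the transcription start that the RefSeq promoter table (GRCm38.p6) uses are given for Mdm2 and Trp53 because Mdm2 is a p53 target and the RNA of both genes differed between groups. Capitals mark, on either strand, a match to the 10-base p53 half-site consensus, the GC box GGGCGG and the CCAAT box.
Mdm2, chr10:117710759-117711008 (− strand): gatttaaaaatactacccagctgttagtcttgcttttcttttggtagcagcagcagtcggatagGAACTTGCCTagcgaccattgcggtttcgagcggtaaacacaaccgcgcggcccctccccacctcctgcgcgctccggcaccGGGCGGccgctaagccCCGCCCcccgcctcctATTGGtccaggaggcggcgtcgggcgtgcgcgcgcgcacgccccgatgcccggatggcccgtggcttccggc
Trp53, chr11:69580109-69580358 (+ strand): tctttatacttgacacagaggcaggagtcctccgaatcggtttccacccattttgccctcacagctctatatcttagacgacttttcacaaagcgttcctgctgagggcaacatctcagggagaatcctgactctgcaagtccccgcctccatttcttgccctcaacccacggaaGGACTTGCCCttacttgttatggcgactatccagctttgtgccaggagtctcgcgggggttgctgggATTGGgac
For Trp53 that start lies downstream of the gene's first base given above, so the last bases of its window are inside the gene. Distances are counted back from the table's start. The Mdm2 window held a half-site starting at 186 bases, GGGCGG at 104 and 88 bases and CCAAT at 72 bases. In the Trp53 window the half-site began at 75 bases and CCAAT at 8 bases. The half-site occurred in 7.1%, GGGCGG in 32.7% and CCAAT in 33.8% of 32851 RefSeq promoter windows of this length. The GC content was 65.6% for Mdm2 and 52.8% for Trp53, against a median of 52.4% over those windows. Neither Mdm4 window held any of these motifs or CACGTG, which 6.0% of windows hold. A match is a string of letters and no evidence of binding, and the known p53 elements of Mdm2 lie downstream, in its first intron.

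Library totals ran from 15122721 to 19833404 counts. In the groups with ES cells, the summed CPM (counts scaled to a common library size) of 8 ES cell markers were 289 to 427 on p53-defective feeders, 5620 to 5850 with ATN161, 4260 to 4400 after feeder removal and 3240 to 3360 on control feeders. They were below 1.5 CPM in all 6 feeder libraries. The 10 fibroblast markers summed to 16000 to 22900 CPM in co-culture on p53-defective feeders, 917 to 1020 with ATN161, 3920 to 4330 after feeder removal, 6260 to 6590 on control feeders, 5020 to 7240 in p53-defective feeders alone and 31600 to 38500 in control feeders alone. The libraries labelled as co-culture on p53-defective feeders thus held few ES cell transcripts. There, 432 genes specific to ES cells had a median of 7.12 to 8.51% of their level in feeder-removed ES cells. In co-culture on control feeders the median was 79.9 to 80.4%. These genes were chosen from the same libraries. They had at least 10 CPM and 8-fold the level of either feeder group, both after feeder removal and with ATN161. Their level in feeder-removed ES cells is thus high by choice. In such bulk libraries, fewer cells of a type and less RNA per cell cannot be told apart. Below, ES cells on p53-defective or on control feeders names the whole co-culture library by its label, feeder RNA included. A difference between such libraries is therefore not shown to be one within ES cells.

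Trp53 was highest with ATN161, followed by ES cells after feeder removal. Its level, in CPM after TMM scaling, was 158, 160.2 and 140.5 CPM on p53-defective feeders, 434.5, 412.2 and 444.6 CPM with ATN161, 364.2, 354.9 and 403.6 CPM after feeder removal and 288.6, 299.9 and 290.8 CPM on control feeders. It was 326.2, 317.1 and 244.3 CPM in p53-defective feeders alone, and 122.9, 123.5 and 111.5 CPM in control feeders alone. In CPM, the p53-defective feeders spanned the whole range of ES cells on control feeders, while the other neighbours in this order did not overlap. Per length this order did not hold throughout, as given below.

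Mdm2 followed another order, with its highest level in co-culture on control feeders. It measured 83.02, 77.01 and 85.91 CPM on p53-defective feeders, 331.5, 348.4 and 335.8 CPM with ATN161, 582.3, 557.6 and 548.8 CPM after feeder removal and 617.9, 633.5 and 588.8 CPM on control feeders. It measured 175.7, 165.5 and 149.7 CPM in p53-defective feeders alone and 433, 446.1 and 430.6 CPM in control feeders alone. No 2 groups overlapped, although the 2 highest were separated by little more than their own spread.

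Mdm4 was lowest in the same co-culture as Mdm2. Its levels were 22.98, 21.78 and 25.96 CPM on p53-defective feeders, 113.1, 121.5 and 102.7 CPM with ATN161, 297.4, 329.4 and 228.4 CPM after feeder removal and 168.5, 154.2 and 184.2 CPM on control feeders. They were 200.5, 210.2 and 242.7 CPM in p53-defective feeders alone and 148.6, 151.9 and 152.8 CPM in control feeders alone. Feeder-removed ES cells overlapped p53-defective feeders. In CPM, ES cells on control feeders lay just above control feeders, without overlap, and the other neighbours did not overlap. Per length, ES cells on control feeders and control feeders alone overlapped, as given below.

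**Figure D1:**
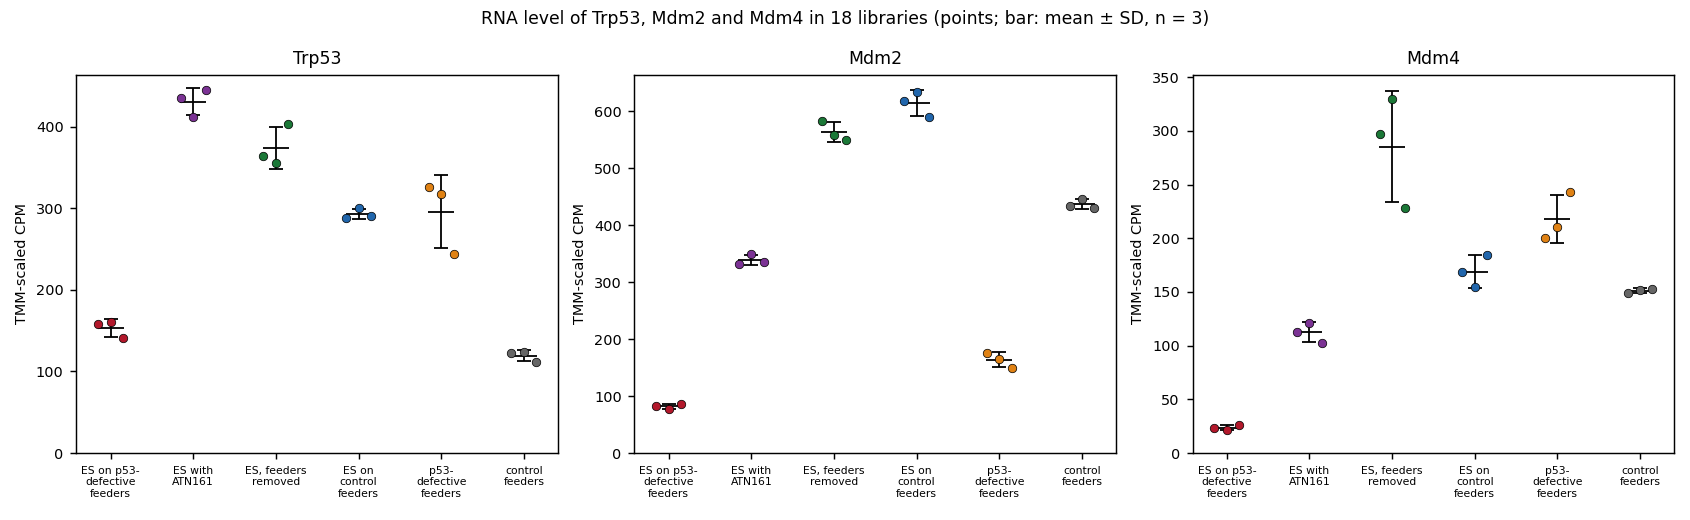
TMM-scaled CPM of Trp53, Mdm2 and Mdm4 (y axes) in each library, by group (x axis); points are libraries, and the line and bar are the mean and SD of 3. Under TMM scaling all 3 genes are low in ES cells on p53-defective feeders, where Mdm4 lies between 21.78 and 25.96 CPM.

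Over the 6 group means, Mdm4 spanned 11.9-fold, Mdm2 7.48-fold and Trp53 3.61-fold. A smaller range was found in 76.9% of the tested genes for Mdm4, in 65.9% for Mdm2 and in 42% for Trp53. Compared per length, as TPM, which divides by transcript length, summed over each gene, Trp53 RNA averaged 102.3 ± 4.455 TPM on p53-defective feeders, 385.8 ± 6.23 TPM with ATN161, 380.3 ± 23.1 TPM after feeder removal and 311.9 ± 6.728 TPM on control feeders (SD, n = 3 each). It averaged 336.5 ± 46.58 TPM in p53-defective feeders and 139.4 ± 8.981 TPM in control feeders. Mdm2 averaged 29.64, 161.9, 301.1 and 346.8 TPM in the 4 groups with ES cells in that order, then 96.41 TPM in p53-defective feeders and 266.3 TPM in control feeders. Mdm4 was the least abundant of the genes in each group, between 3.44 TPM on p53-defective feeders and 62.49 TPM after feeder removal. By TPM, Trp53 with ATN161 (378.7 to 390.2) lay within its range after feeder removal (364.2 to 406.8). Trp53 in co-culture on p53-defective feeders (97.23 to 105.6) lay below control feeders alone (129.1 to 145.9), the reverse of their CPM order. Mdm4 on control feeders (35.49 to 41.77 TPM) overlapped control feeders alone (37.38 to 39 TPM). Per length, Mdm2 RNA was 0.287 times Trp53 RNA in p53-defective feeders, against 1.91 times in control feeders. It was 0.29 times Trp53 RNA in co-culture on p53-defective feeders, against 1.11 times in co-culture on control feeders.

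In the feeders, the comparison asks what the p53-defective label goes with in the absence of ES cells. Trp53 RNA was 2.48-fold higher in p53-defective than in control feeders, Mdm2 was 2.67-fold lower and Mdm4 1.44-fold higher. On the log2 scale the changes were 1.31 ± 0.09 for Trp53 (SE, edgeR quasi-likelihood test, Benjamini-Hochberg adjusted p = 1.07e-11), -1.42 ± 0.07 for Mdm2 (adjusted p = 2.01e-14) and 0.53 ± 0.11 for Mdm4 (adjusted p = 0.000118). All 3 genes were called, as were 74.3% of the 15389 genes tested. Trp53 RNA was thus present in every p53-defective library, and gene sums cannot show whether a part of the gene was missing or altered. Of 40 p53 targets, 27 fell and 7 rose, with a median log2 change of -1.03, against -0.01 over all genes tested, of which 38.4% were called lower and 35.9% higher. Among the targets, Btg2, an antiproliferative gene, fell by 1.77 ± 0.08 and Pmaip1, which encodes the death-promoting protein Noxa, fell by 1.70 ± 0.09. Perp, a membrane protein gene of p53-dependent cell death, fell by 2.24 ± 0.11, and Igfbp3, which encodes a secreted binding protein of insulin-like growth factors, fell by 3.80 ± 0.12. Of 34 genes that act on p53 or Mdm2, 22 rose and 6 fell (median 0.55). They included Cdkn2a (1.54 ± 0.09), whose ARF product binds Mdm2, Mtbp (2.12 ± 0.10), which encodes an Mdm2-binding protein, the p53 kinase gene Hipk2 (1.77 ± 0.12) and the p53 methyltransferase gene Kmt5a (1.08 ± 0.08). In the p53 family and its ASPP partners, Ppp1r13b and Trp53bp2 rose by 0.79 ± 0.08 each, Ppp1r13l fell by 0.89 ± 0.11, and Trp63 and Trp73 were not called. The feeders also differed in cell type markers, with 5 mesothelial markers summing to 1210 to 1780 CPM in p53-defective and 41.4 to 48.6 CPM in control feeders, 5 endodermal markers to 161 to 174 CPM in p53-defective and 4.28 to 5.97 CPM in control feeders, and 6 macrophage markers to 11 to 15 CPM in p53-defective and 116 to 160 CPM in control feeders. Of these, Sox17 was at 0 in both feeder groups, and Adgre1 and Ptprc were at 0 in p53-defective feeders. By gene, all 5 mesothelial and 3 of the 5 endodermal markers rose, while 5 macrophage markers fell and 1 rose. All 10 fibroblast markers fell (median log2 change -3.12). The part of these marker differences in those of Trp53, Mdm2 and Mdm4 was not tested.

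**Figure D2:**
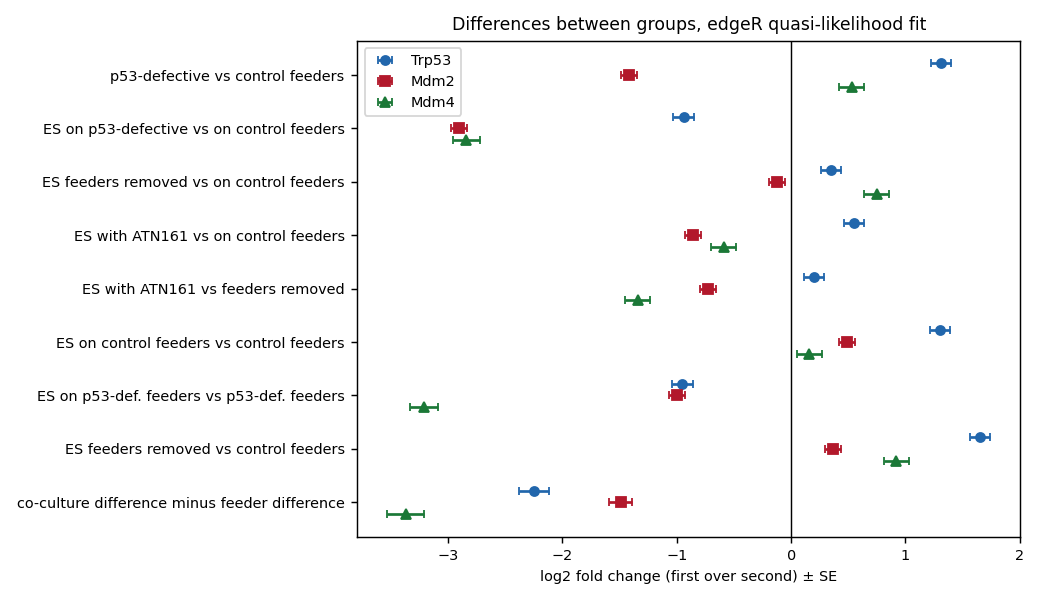
log2 fold changes (x axis, points, with SE bars) of the 3 genes in each comparison (y axis) from the edgeR fit. Trp53 and Mdm2 lie on opposite sides of 0 in p53-defective against control feeders (1.31 and -1.42) and with ATN161 against co-culture on control feeders (0.55 and -0.86). With scaling on ES-specific genes the values of all 3 genes turn in co-culture, as do the interaction values of Trp53 and Mdm2. They also turn for ES cells on control feeders or after removal against control feeders. Those ES-specific genes are by their choice nearly silent in feeders. A fall against control feeders is thus built into this scaling (medians over all genes -5 and -5.3).

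In co-culture, the same label went with lower RNA of all 3 genes. Mdm2 was 7.48-fold, Mdm4 7.16-fold and Trp53 1.92-fold lower in co-culture on p53-defective feeders than in co-culture on control feeders. The log2 changes were -2.90 ± 0.07 for Mdm2 (edgeR, adjusted p = 2.72e-19), -2.84 ± 0.12 for Mdm4 (adjusted p = 1.05e-15) and -0.94 ± 0.09 for Trp53 (adjusted p = 1.97e-09), in a comparison that called 83.4% of all genes. Scaled on the 432 ES-specific genes in place of all genes, all 3 directions turned, to 0.49 for Mdm2, 0.55 for Mdm4 and 2.45 for Trp53, while the median of all tested genes moved by more than 3 units, to 3.2 from -0.18. Each of the 3 genes was lower in every library of this co-culture than in every library of p53-defective feeders alone and of feeder-removed ES cells. The share of all genes separated in this way was not counted. In the test against p53-defective feeders alone, 33% of all genes were called lower. Against p53-defective feeders alone, Mdm4 fell by 3.21 ± 0.12, Mdm2 by 1.0 ± 0.07 and Trp53 by 0.95 ± 0.09 on the log2 scale (edgeR, adjusted p = 6.13e-16, 1.37e-11 and 2.04e-09), where 79.7% of genes were called. Fibroblast markers summed to 16000 to 22900 CPM in this co-culture and to 5020 to 7240 CPM in p53-defective feeders alone, and the part of cell composition was not tested.

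Of the p53 targets, 29 fell and 8 rose in this co-culture relative to that on control feeders, with a median of -1.18 against -0.18 over all genes, of which 46.7% fell and 36.6% rose. Scaled on ES-specific genes, 36 rose and 1 fell, as did 13509 and 411 of all 15389 genes. Btg2 (-3.08 ± 0.08), the stress response gene Sesn2 (-3.27 ± 0.10) and Trp53inp1 (-2.85 ± 0.10), which encodes a nuclear protein that promotes p53 activity, were lower. Igfbp3 was higher by 4.95 ± 0.13, at 791 ± 40 CPM in co-culture on p53-defective feeders and 25.6 ± 1.2 CPM in co-culture on control feeders, beside 44.3 ± 9.8 CPM in p53-defective and 618 ± 74 CPM in control feeders alone (SD, n = 3). Of the genes acting on p53 or Mdm2, 10 rose and 19 fell (median -0.43). The deacetylase gene Sirt1 fell by 3.39 ± 0.15 and Rybp, whose product binds Mdm2, by 1.96 ± 0.09, whereas the kinase gene Akt1 rose by 1.42 ± 0.06 and the deubiquitinase gene Otub1 by 1.73 ± 0.08. Trp73, the gene of the p53 relative p73, fell by 4.75 ± 0.21. Scaled on ES-specific genes, which put 97% of all called genes higher, 33 of the 34 regulators rose and none fell.

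The difference between these changes with the feeder label was tested as an interaction. Because the co-cultures also differed in ES cell content, the test cannot separate that content from the label. The change in co-culture minus the change in feeders alone was -2.25 ± 0.13 for Trp53 (edgeR, adjusted p = 4.06e-13), -1.49 ± 0.10 for Mdm2 (adjusted p = 4.4e-12) and -3.37 ± 0.16 for Mdm4 (adjusted p = 1.65e-14), and 73.6% of all genes were called in this test, 38.8% higher and 34.8% lower. Of the p53 targets 14 were higher and 16 lower in it (median -0.22, all genes 0.04). With scaling on ES-specific genes it turned to 0.97 for Trp53 and 1.73 for Mdm2 and was not called for Mdm4 (-0.15), while the median of all genes moved to 3.28, from 0.04. In feeders alone that scaling rests on genes at 0.32 to 0.544% of their level in ES cells.

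Ratios within a library do not depend on scaling. The log2 ratio of Mdm2 to Trp53 counts was -0.89, -0.94 and -0.71 in p53-defective feeders, against 1.82, 1.85 and 1.95 in control feeders. It was -0.93, -1.06 and -0.71 in ES cells on p53-defective feeders, against 1.10, 1.08 and 1.02 in ES cells on control feeders. The ratio was thus 6.58-fold lower in p53-defective than in control feeders and 3.90-fold lower in the co-culture, with no overlap in either (exact permutation p = 0.1, two-sided, the smallest that 3 against 3 libraries allow). In ES cells on p53-defective feeders it overlapped that of p53-defective feeders alone, from which it differed by -0.0528 (exact permutation p = 0.7). The log2 ratio of Mdm4 to Trp53 averaged -0.435 ± 0.372 in p53-defective and 0.342 ± 0.0975 in control feeders, and -2.70 ± 0.233 in ES cells on p53-defective and -0.798 ± 0.152 on control feeders (SD, n = 3). Over the 16 ratio comparisons the smallest adjusted p was 0.114, and in 14 the groups did not overlap. Ratios of other gene pairs were not counted.

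**Figure D3:**
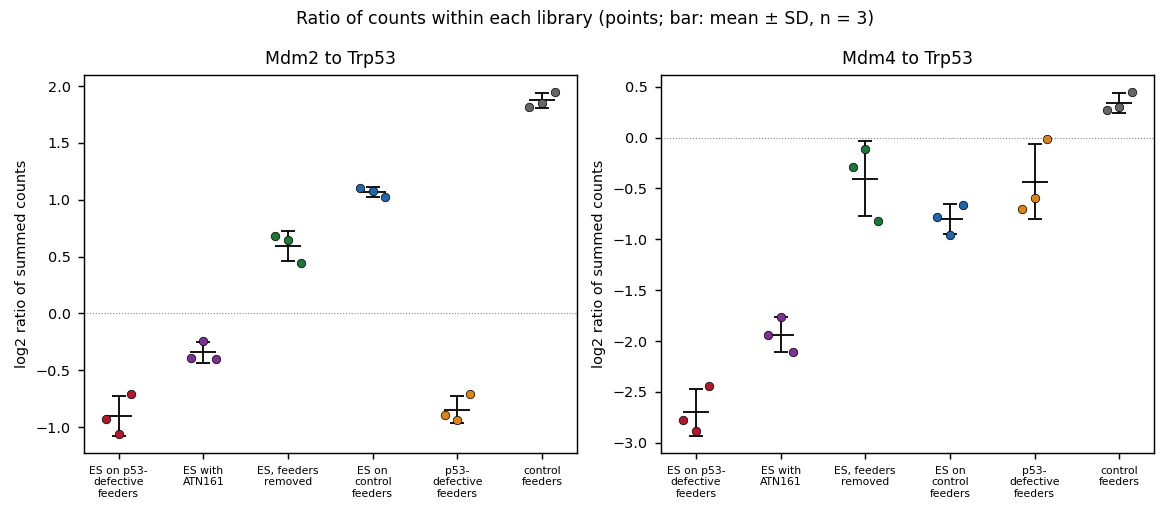
log2 ratio of Mdm2 or Mdm4 counts to Trp53 counts in each library (y axes) by group (x axis); points are libraries, lines and bars the mean and SD of 3. The Mdm2 ratio lies below 0 in both groups with p53-defective feeders and with ATN161, and above 1 in both groups that hold control feeders.

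ES cells after feeder removal were compared with ES cells still with control feeders. Mdm4 was higher by 0.75 ± 0.11 (edgeR, adjusted p = 4.22e-06) and Trp53 by 0.35 ± 0.09 (adjusted p = 0.00208) after removal, where 52% of genes were called. Mdm2 was not called, at -0.12 ± 0.07 (95% interval -0.26 to 0.01, adjusted p = 0.128), although its groups did not overlap. With scaling on ES-specific genes Trp53 was no longer called (0.03) and Mdm2 was called lower (-0.44). The ratio of Mdm2 to Trp53 was 1.39-fold lower after removal, with log2 values of 0.68, 0.65 and 0.44 there (exact permutation p = 0.1). Of the p53 targets, 6 rose and 15 fell (median -0.06, against -0.01 over all genes, with 25.5% higher and 26.5% lower), among them the stress cytokine gene Gdf15, which fell by 1.67 ± 0.13, the epoxide hydrolase gene Ephx1, which fell by 0.87 ± 0.08, Pmaip1, which fell by 0.74 ± 0.08, and Trp53inp1, higher by 0.76 ± 0.09. Of the regulators, 18 rose and 4 fell (median 0.21), including the checkpoint kinase genes Chek1 (1.0 ± 0.09) and Atr (0.93 ± 0.09), the nucleolar gene Npm1 (0.89 ± 0.09) and Akt1 (-0.76 ± 0.06). With scaling on ES-specific genes, 2 targets rose and 27 fell, and 8 regulators rose and 12 fell, beside 1293 higher and 7679 lower of all 15389 genes. Fibroblast markers summed to 3920 to 4330 CPM after removal and to 6260 to 6590 CPM on control feeders, and their part in these differences was not tested.

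With ATN161 in place of feeders, Trp53 and its inhibitors moved in opposite directions. Against ES cells on control feeders, Trp53 was higher by 0.55 ± 0.09 (edgeR, adjusted p = 1.34e-05), Mdm2 fell by 0.86 ± 0.07 (adjusted p = 3.82e-10) and Mdm4 fell by 0.59 ± 0.11 (adjusted p = 6.26e-05), with 61.6% of genes called. Scaled on ES-specific genes, Trp53 was at 0.09 and not called, and both inhibitors stayed lower. Against feeder-removed ES cells, which differ from the ATN161 group less in fibroblast markers, Mdm2 fell by 0.73 ± 0.07 (adjusted p = 8.68e-09) and Mdm4 by 1.34 ± 0.11 (adjusted p = 1e-09), where 55.4% of genes were called. Trp53 was not called in this comparison (0.20 ± 0.09, 95% interval 0.03 to 0.38, adjusted p = 0.0576). The log2 ratio of Mdm2 to Trp53 was -0.39, -0.24 and -0.40 with ATN161, which is 1.91-fold below feeder-removed ES cells and 2.66-fold below ES cells on control feeders, with no overlap (exact permutation p = 0.1 each). The log2 ratio of Mdm4 to Trp53, -1.94 ± 0.176, was 2.89-fold and 2.21-fold below those groups (exact permutation p = 0.1 each, SD, n = 3). These comparisons share their libraries with ATN161.

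Among p53 targets, 9 rose and 22 fell with ATN161 against ES cells on control feeders (median -0.27, all genes 0.07, with 33.6% higher and 28% lower), and 8 rose and 19 fell against feeder-removed ES cells (median -0.15, all genes 0.03, with 28.6% higher and 26.8% lower). In these comparisons Btg2 fell by 1.44 ± 0.08 and 1.01 ± 0.08. Gdf15 and Ephx1 were lower than on control feeders by 2.17 ± 0.14 and 1.38 ± 0.08. Against feeder-removed ES cells, the death receptor gene Eda2r fell by 1.31 ± 0.11 and the growth arrest gene Gadd45a higher by 1.0 ± 0.10. Of the regulators, 18 rose and 6 fell against ES cells on control feeders (median 0.26), and 6 rose and 10 fell against feeder-removed ES cells (median -0.06). Crebbp (-0.77 ± 0.12), an acetyltransferase gene, Atr (-0.53 ± 0.09), Cop1 (-0.35 ± 0.07), the gene of another ubiquitin ligase of p53, and Sirt1 (-0.57 ± 0.12) had the smallest p in the comparison with removed feeders. With scaling on ES-specific genes, the counts against ES cells on control feeders were 3 higher and 34 lower targets and 2 higher and 16 lower regulators, beside 668 higher and 8354 lower of all 15389 genes. Against feeder-removed ES cells they were 6 higher and 21 lower targets and 1 higher and 16 lower regulators, beside 2470 higher and 5133 lower of all genes.

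Without p53-defective feeders, ES cells and control feeders can also be set side by side. Trp53 was higher in ES cells on control feeders than in control feeders alone by 1.30 ± 0.09 (edgeR, adjusted p = 7.9e-12) and Mdm2 by 0.49 ± 0.07 (adjusted p = 5.79e-07), while Mdm4 was not called (0.16 ± 0.11, 95% interval -0.05 to 0.37, adjusted p = 0.162), with 84.2% of genes called, 44.3% higher and 39.9% lower. Feeder-removed ES cells exceeded control feeders in all 3 genes, by 1.65 ± 0.09 for Trp53, 0.37 ± 0.07 for Mdm2 and 0.92 ± 0.11 for Mdm4 (adjusted p = 8.88e-14, 2.85e-05 and 4.05e-08), with 85.9% of genes called, 45.1% higher and 40.8% lower. All these directions turned with scaling on ES-specific genes, which by their choice are nearly silent in feeders.

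By transcript, Trp53 RNA was mostly NM_011640, which held 84.9 to 90.2% of Trp53 counts in the group means. NM_001127233, with the earlier start of exon 11, held 7.508, 7.361 and 7.082% of Trp53 counts in p53-defective feeders, against 10.8, 10.55 and 11.49% in control feeders. These are estimated counts of the whole transcript and not reads on that exon. The difference was -3.63 percentage points, with no overlap (exact permutation p = 0.1). The level of NM_001127233 was nevertheless higher there, by 0.67 ± 0.18 on the log2 scale (edgeR over transcripts, adjusted p = 0.0112), beside 1.32 ± 0.10 for NM_011640 (adjusted p = 8.4e-08). With limma-voom the call for NM_001127233 ended (0.66, adjusted p = 0.0601). In the ES cell groups its share averaged 11.6 ± 2.8% on p53-defective feeders, 12.3 ± 1.19% with ATN161, 13.3 ± 1.36% after feeder removal and 13.1 ± 0.292% on control feeders (SD, n = 3), and each of the first 3 overlapped the last. Both curated transcripts were lower in ES cells on p53-defective than on control feeders, by 1.05 ± 0.10 for NM_011640 and 1.22 ± 0.18 for NM_001127233 (adjusted p = 7.43e-07 and 7.94e-05), and turned to 2.44 and 2.29 with scaling on ES-specific genes.

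The predicted Trp53 models were minor, with a mean of at most 2.5% of the counts of a group each. XM_030245923 had 84.79, 85.84 and 110.1 counts in p53-defective feeders and 0 in all 3 control feeder libraries. With 3 counts summed over the 3 control libraries as the floor, it was at least 99.1-fold higher as far as counting error goes. That floor does not cover error in how shared reads were divided between transcripts. In the ES cell groups it had between 50.2 and 67.58 counts in each library. XM_006533157 went the other way, with 17.58 counts in 1 of the p53-defective feeder libraries and 0 in the other two, against 36.12, 42.37 and 43.79 counts in control feeders. It had 0 counts in all libraries with ES cells. Counts of such models are estimates from reads that the transcripts largely share, so a 0 does not show that a transcript was absent. XM_030245922 held 0.294 to 1.04% of Trp53 counts.

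Of the 15 transcripts, all of which passed the filter on low counts, 7 were called between the feeders (26% of the 48055 transcripts tested), 3 higher and 4 lower in p53-defective feeders. In co-culture 9 were called, all lower on p53-defective feeders. Of all transcripts tested there, 8851 were called lower and 5714 higher (30.3% in either direction). After feeder removal 1 was called (8.54%), and with ATN161 5 were called against ES cells on control feeders (13.6%) and 4 against feeder-removed ES cells (10.9%). Against feeders alone, 8 were called in each comparison. All were lower in ES cells on p53-defective feeders than in those feeders, beside 5989 lower and 8274 higher of all transcripts (29.7%). In ES cells on control feeders 7 of them were higher than in control feeders, beside 9579 higher and 5929 lower (32.3%). After feeder removal all were higher than in control feeders, beside 9899 higher and 6902 lower (35%).

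Mdm2 counts lay mostly in NM_010786, a curated transcript that held between 62.9 and 84.7% of them in the group means. The other curated transcript, NM_001288586, held 8.154, 10.93 and 8.853% of Mdm2 counts with ATN161, against 19.21, 18.83 and 20.64% after feeder removal and 16.85, 19.83 and 18.92% on control feeders. With ATN161 it lay below every library of both groups (exact permutation p = 0.1 each). Its level fell by 1.77 ± 0.17 than after feeder removal and by 1.87 ± 0.17 than on control feeders (edgeR, adjusted p = 8.13e-06 and 2.49e-06). For NM_010786 the falls were smaller, 0.51 ± 0.05 and 0.73 ± 0.05 (adjusted p = 3.6e-06 and 3.92e-08). The predicted model XM_017313822 was lower still with ATN161, at -3.13 ± 0.24 and -2.40 ± 0.24 (adjusted p = 9.11e-07 and 4.46e-06), to 30.98 to 38.84 counts with ATN161, against 238.2 to 349.1 after feeder removal and 159.7 to 240.6 on control feeders. Both curated transcripts matched the same GENCODE transcript, so that no sequence telling them apart is printed.

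In feeders, Mdm2 transcripts differed in another way. The predicted model XM_036155661 held 7.037, 6.303 and 0% of Mdm2 counts in p53-defective feeders and 15.27, 16.76 and 14.01% in control feeders, with no overlap (exact permutation p = 0.1). Its level fell by 3.20 ± 0.87 in p53-defective feeders (edgeR, adjusted p = 0.0126), a call that ended in a fit of only the feeder libraries (adjusted p = 0.0868). In the ES cell groups it held 3.18 to 5.41% in the means. NM_010786 and NM_001288586 were lower in p53-defective feeders by 1.27 ± 0.05 and 1.34 ± 0.17 (adjusted p = 4.04e-11 and 2.22e-05), and XM_017313822 by 1.54 ± 0.23 (adjusted p = 8.35e-05). In ES cells on p53-defective feeders all 4 Mdm2 transcripts were lower than on control feeders, NM_010786 by 3.06 ± 0.05, NM_001288586 by 2.75 ± 0.18, XM_036155661 by 2.74 ± 0.88 and XM_017313822 by 4.49 ± 0.27 (adjusted p = 2.28e-14, 1.57e-08, 0.0275 and 5.45e-09). The call for XM_036155661 ended without any of 4 of the 6 libraries compared (adjusted p = 0.059 to 0.106). Scaling on ES-specific genes turned NM_010786 to 0.43, NM_001288586 to 0.76 and XM_036155661 to 0.74. After feeder removal NM_010786 fell by 0.23 ± 0.05 than on control feeders (adjusted p = 0.00455).

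**Figure D4:**
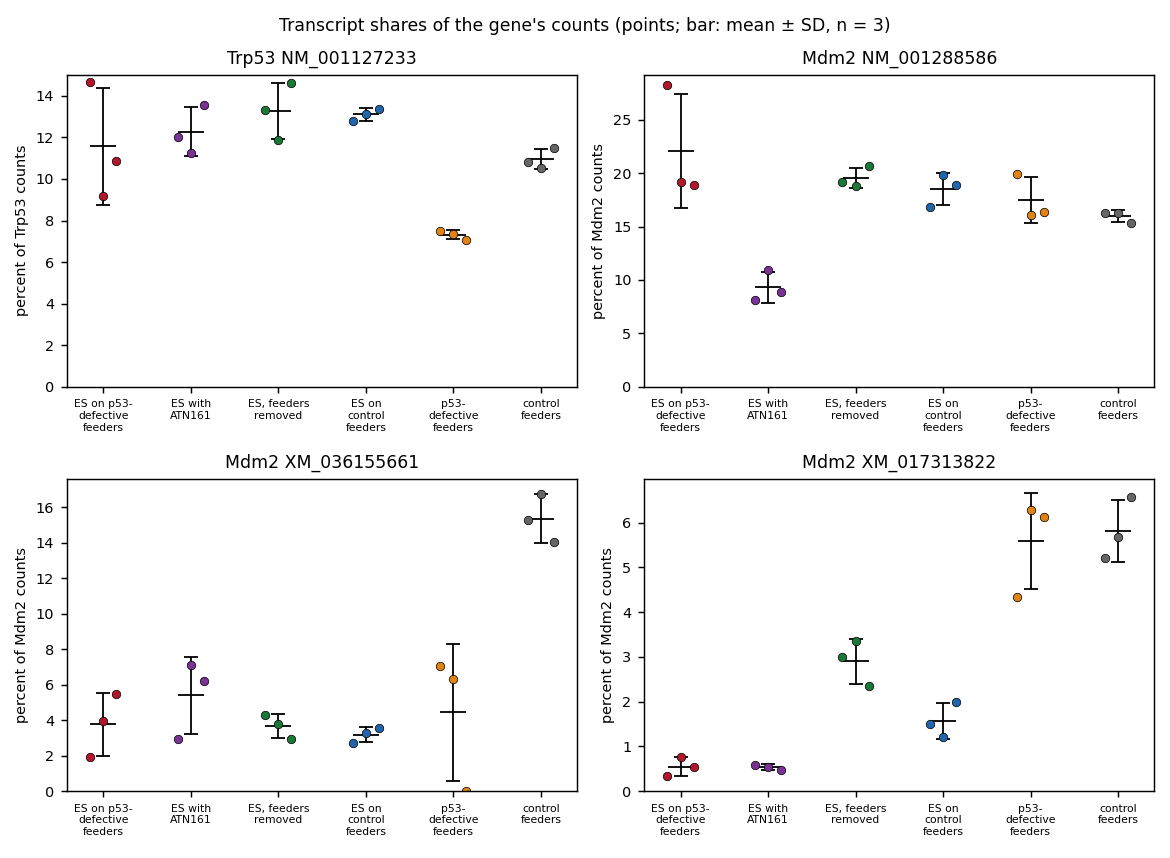
Share of the gene's counts (y axes, percent) held by Trp53 NM_001127233 and by 3 Mdm2 transcripts in each library, by group (x axis); points are libraries, lines and bars the mean and SD of 3. NM_001127233 is lowest in p53-defective feeders at 7.32%, NM_001288586 with ATN161 at 9.31%, and XM_036155661 is highest in control feeders at 15.3%.

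Mdm4 counts were split over 6 transcripts, and the split varied more between libraries of a group than for the other genes. NM_001302802, which carries the extra CAG, had 26.21, 14.85 and 19.75 counts with ATN161, against 1731, 1475 and 1596 after feeder removal and 0.35, 1181 and 608.7 on control feeders. With ATN161 and after removal this is 0.93 ± 0.283% and 31.2 ± 6.99% of Mdm4 counts (SD, n = 3, exact permutation p = 0.1). Its level with ATN161 fell by 6.35 ± 1.48 than after removal (edgeR, adjusted p = 0.0109), a call that ended without any 1 of the ATN161 libraries (adjusted p = 0.0509 to 0.0573) and with limma-voom (adjusted p = 0.145). Against ES cells on control feeders it was called at -4.80 ± 1.41 (adjusted p = 0.0349), which ended without 11 of the 18 libraries in turn (adjusted p up to 0.136). NM_001302801, which also carries CAG, had 94.5, 444.9 and 638.9 counts with ATN161 and 0.05, 0 and 191.9 counts after removal. Summed, the 2 transcripts with CAG held 5.4, 19.2 and 33.3% of Mdm4 counts with ATN161, 31.9, 23.9 and 42.4% after removal and 16.2, 44.2 and 16.1% on control feeders, which overlap. The sums thus differed less between the ATN161 and feeder-removed groups than NM_001302802 alone. NM_008575 and XM_006529233, which held 6.93% and 25.5% of Mdm4 counts with ATN161, were not matched at this junction. The sums are therefore not the whole share of counts with or without CAG.

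Feeders and ES cells differed in their Mdm4 transcripts. NM_008575 had 124.9 to 559.1 counts in each library with ATN161, after feeder removal or on control feeders. In ES cells on p53-defective feeders it had 32.79 counts in 1 library and 0 in the others. In p53-defective feeders alone it had 52.22 counts in 1 library and 0 in the other two, against 0 in all control feeder libraries. The predicted model XM_006529233 held 25.5 ± 1.85% of Mdm4 counts with ATN161, 25.1 ± 2.11% after removal and 25.3 ± 8.55% on control feeders, but 3.77 ± 6.54% on p53-defective feeders, 7.86 ± 1.22% in p53-defective feeders and 3.92 ± 0.771% in control feeders (SD, n = 3). In co-culture on p53-defective feeders, NM_001302803 held 47.59, 52.66 and 72.36% of Mdm4 counts, against 41.02, 19.7 and 26% on control feeders, with no overlap (exact permutation p = 0.1). Its level fell by 1.94 ± 0.32 (edgeR, adjusted p = 0.000232), which turned to 1.55 with scaling on ES-specific genes. XM_006529233 fell by 5.56 ± 0.87 (adjusted p = 0.000141) and was not called with that scaling (-2.07). NM_001302802 fell by 3.81 ± 1.32 (adjusted p = 0.0415), a call that ended without 16 of the 18 libraries in turn (adjusted p up to 0.161). Single libraries on p53-defective feeders set these sizes: without library 3 XM_006529233 was at -12.7, and without library 2, the only one of them with NM_001302802 counts, NM_001302802 was at -12.11. With those libraries left out the group is at 0, so these fitted values are no bound. Between the feeders, no Mdm4 transcript was called, although their sum was. Over the 120 share comparisons of all 15 transcripts the smallest adjusted p was 0.226, and in 53 the groups did not overlap. How often transcripts of other genes separate in this way was not counted.

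**Figure D5:**
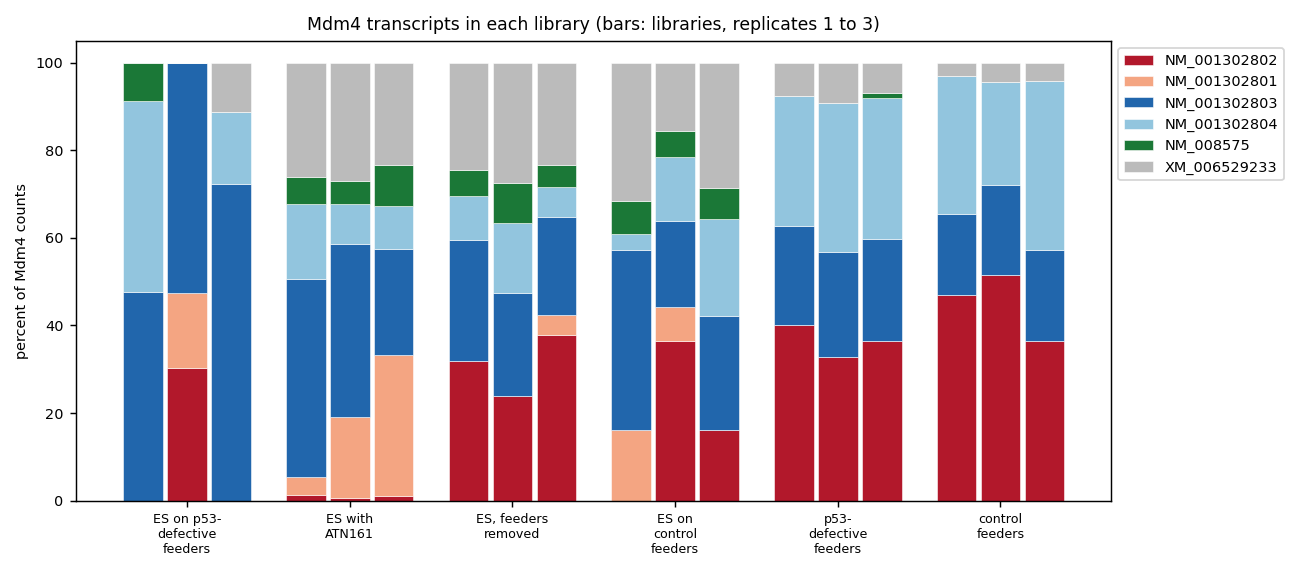
Share of Mdm4 counts (y axis, percent) held by each of 6 transcripts (colours), with 1 stacked bar for each library in replicate order, by group (x axis). NM_001302802 holds 0.93% with ATN161 and 31.2% after feeder removal, and NM_008575 is missing from the bars of control feeders.

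The genes most like each member over the 6 groups were found by the root mean square difference of their centred log2 CPM means, among 11521 genes. For Mdm2 they were Cpeb2 (0.21), which encodes an RNA-binding protein of translation, Dcp1a (0.26), an mRNA decapping factor gene, and the p53 target Btg2 (0.30). For Mdm4 they were Pcf11 (0.25), an RNA cleavage factor gene, Dido1 (0.25) and Gm20939 (0.32). For Trp53 they were Ppp6r3, Wdr12 and Rbm12, at 0.09 each. Over the 18 libraries, which share groups and depth, the correlations with these genes were 0.965 to 0.976 for Mdm2, 0.942 to 0.978 for Mdm4 and 0.969 to 0.982 for Trp53. The smaller distances of Trp53 stand beside its smaller range.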

How the data were processed

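Messenger RNA was sequenced in 18 libraries in 6 groups of 3, grouped by sample titles. Per the labels' protocols, Trizol was used for RNA and a TruSeq mRNA kit for the libraries; strandedness is not given in the sources used here. Per the submitters' processing notes, the tools were StringTie 1.3.3b, HISAT2 2.1.0, DESeq2 1.2.10 and SAMtools 1.4, with no role stated, and the builds mm10 and GRCm38. The authors deposited, for each RefSeq transcript and library, an expected count (an estimated count that need not be whole) and a TPM value in 1 table, and 60 other deposited columns (such as FPKM and averages) were not used. How reads shared by transcripts were divided is not given in the sources used here, and that error is in no p-value.

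Counts were summed per gene, rounded and tested with the edgeR 4.0.16 quasi-likelihood test (R 4.3.3, TMM, filterByExpr, robust, two-sided) in 1 fit of all libraries, with a Benjamini-Hochberg adjusted p below 0.05 over 15389 genes (4241 removed) or 48055 transcripts (27361 removed) called. TPM was used only for levels between genes. Ratios and shares were compared by exact permutation. In simulated counts for p53-defective against control feeders, 99% of 2-fold changes were found and 7.9% of calls were false over genes (15257 tested, 200 changed), and 46% were found and 1.7% of calls were false over transcripts (42239 tested, 200 changed). Floors cover counting error only, and errors of fold changes the spread between libraries. Alternatives were DESeq2 1.42.0, limma 3.58.1 (voom), other filters and scalings, a replicate block, fits of only the groups compared and leaving out each library. Sequences are from GENCODE and RefSeq on GRCm38.

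Named were the 3 genes, their transcripts with at least 1 CPM or 5 percent of the gene in a group, up to 4 members of each list with the smallest p, and the 3 nearest genes with at least 10 CPM. A gene that this rule names is not reported here. The members and lists were chosen with earlier results of these data known.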

Additional observations from a re-analysis of the deposited data

Results flagged for a closer look

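The change that went with the p53-defective label differed between co-culture and feeders alone for each of the 3 genes, by a test of the difference itself in edgeR. The co-cultures also differed in cell content, with ES cell markers at 289 to 427 CPM on p53-defective and 3240 to 3360 CPM on control feeders. An interaction test cannot separate that difference from the label. The change in co-culture minus the change in feeders alone was -2.25 for Trp53, -1.49 for Mdm2 and -3.37 for Mdm4 on the log2 scale (adjusted p = 4.06e-13, 4.4e-12 and 1.65e-14). The same test called 73.6% of all genes. For Trp53 the label went with lower RNA in co-culture (-0.94) and higher RNA in feeders alone (1.31), and likewise for Mdm4 (-2.84 and 0.53), whereas Mdm2 was lower in both (-2.90 and -1.42). With scaling on ES-specific genes the differences for Trp53 and Mdm2 turned, and that for Mdm4 was not called, while over all genes the median of this difference became 3.28, from 0.04.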

How the results depend on the processing

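Of 702 alternative values for the gene fold changes 666 kept their direction and their side of the threshold, as did 765 of 832 for transcripts, 186 of 186 for shares and 110 of 112 for ratios. Scaling on ES-specific genes moved the median of all genes to 3.2 in co-culture, -5 and -5.3 for ES cells on or off control feeders against control feeders, and 3.28 in the interaction. Which scaling is nearer to levels within cells was not tested. A change of scaling shifts all genes of a comparison together. In co-culture the median of all genes went from -0.18 to 3.2. Trp53 went from -0.94 to 2.45, Mdm2 from -2.9 to 0.49 and Mdm4 from -2.84 to 0.55. The turned directions of the 3 genes are thus part of the common shift from scaling on ES-specific genes. This scaling turned the log2 changes in co-culture to 2.45 (Trp53), 0.49 (Mdm2) and 0.55 (Mdm4), and of their transcripts to 2.44 (NM_011640), 2.29 (NM_001127233), 0.43 (NM_010786), 0.76 (NM_001288586), 0.74 (XM_036155661) and 1.55 (NM_001302803). For ES cells on control feeders against control feeders it gave -3.79, -4.59 and -4.92 for Trp53, Mdm2 and Mdm4, for feeder-removed ES cells against control feeders -3.75, -5.04 and -4.49, and for the interaction 0.97, 1.73 and -0.15 (the last not called). After feeder removal it gave 0.03 for Trp53 (not called) and -0.44 for Mdm2 (called), with ATN161 against control feeders 0.09 for Trp53 (not called), and against removal -0.06 for NM_001127233. Under it the share of called genes that were higher was 97% in co-culture (43.9% otherwise), 14.4% after removal (49%), 7.4% with ATN161 against control feeders (54.6%), 32.5% against removal (51.7%), and 3.8%, 9.5% and 3.6% for ES cells on control feeders, on p53-defective feeders and after removal against feeders (52.6%, 58.6% and 52.5%), and 96.7% in the interaction (52.8%). Called transcripts came to 25846 in co-culture, 34501, 21700 and 35063 against feeders and 22333 in the interaction, against 14565, 15508, 14263, 16801 and 12553. The DESeq2 Wald test called 7503 transcripts after removal, 10158 with ATN161 against control feeders and 9031 against removal, beside 4105, 6545 and 5219 by edgeR.

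Mdm2 after feeder removal was called at -0.18 with a filter of 5 CPM and at -0.12 in a fit of only the groups compared, and its values without 1 library were -0.2 to -0.12, called without 6 of the 18 libraries. Trp53 with ATN161 against removal was called at 0.16 when fitted with those libraries alone, and without 1 library was at 0.14 to 0.23. Mdm4 in ES cells on control feeders against control feeders was called at 0.25 with no filter, 0.24 with a filter of 5 CPM and 0.18 in a fit of only those groups, and lay at 0.15 to 0.3 without 1 library. The Mdm2 to Trp53 ratio in ES cells on p53-defective feeders against those feeders turned to 0.03 and 0.02 without 1 library each.

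The replicate numbers did not pair the libraries: same-numbered deviations correlated by -0.07 to 0.22, never above 0.1 in all pairs of a comparison. A replicate block changed no call of the 27 gene results (Trp53 between feeders 1.31, Mdm2 -1.42, Mdm4 0.53) and ended 2 transcript calls, of NM_001302802 in co-culture (-3.88) and with ATN161 against control feeders (-4.46). A test of transcript usage was left out, because 68.2% of its calls in simulated counts were false.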
